A study of Mus musculus and Rattus norvegicus with 37 samples.

Results

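The genes described here are 10 genes of major histocompatibility complex (MHC) class I antigen processing, of 60084 gene names in 4 tables of liver RNA-seq values. They are the peptide transporter genes Tap1 and Tap2 with their partner Tapbp, the immunoproteasome subunit genes Psmb8, Psmb9 and Psmb10, the class I light chain gene B2m, the class I heavy chain genes H2-K1 and H2-D1, and the class I regulator gene Nlrc5. They were picked by gene symbol, and the set was selected because Tap1 responded differently to miR-29 inhibition in mice of different genotype labels. All 10 were listed in both mouse tables and 8 in each rat table, where the H2 genes have no counterpart of the same name.

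The mouse livers came from female C57BL/6J animals given 1 subcutaneous dose of LNA29 or saline and were collected in the fed state on day 7. LNA29 combines antisense inhibitors made with locked nucleic acid, one kind against miR-29a and another against miR-29b and miR-29c, at 20 mg/kg each. The WT/Floxed group held 8 LNA29-treated mice (4 WT and 4 floxed) and 5 saline-treated mice (3 WT and 2 floxed), of which the WT mice were 9 to 11 weeks old and the floxed mice 15 to 20 weeks old. The group labelled L-Sirt1 KO held 4 LNA29-treated and 4 saline-treated littermates of the floxed mice, also aged 15 to 20 weeks, in which Sirt1 is meant to be absent from the liver. Background and age differed together between WT and floxed mice and cannot be told apart, and 1 floxed saline-treated mouse had been left out by the authors. The LNA29 work was done at National Health Institutes and at NYU Winthrop Hospital. Which mice came from each site is not given in the sources used here, so site may differ with background too. The rats were male: 4 Zucker Fatty rats (ZFR), which lack a working leptin receptor, and 4 Zucker Lean rats (ZLR) at 5.5 months, and ZFR aged 3 months given BT2 (4 rats) or its dimethylsulfoxide vehicle (4 rats) each day for 1 week. BT2 is a small molecule that inhibits the kinase of the branched-chain ketoacid dehydrogenase, and it was given at 20 mg/kg.

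Nearly every nucleated cell shows peptides from its own proteins on MHC class I molecules. Proteasomes cut the proteins, TAP1 and TAP2 together pump the peptides into the endoplasmic reticulum, and tapasin (Tapbp) holds the empty class I molecule at the pump until a peptide is bound. In cells exposed to interferon the immunoproteasome subunits PSMB8, PSMB9 and PSMB10 take the place of the standard catalytic subunits, and the transactivator NLRC5 raises transcription of the class I pathway. Hepatocytes carry class I molecules at a moderate level, and Kupffer cells, sinusoidal endothelial cells and lymphocytes of the liver carry more.

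Estimated depth ran from 42.6 to 78.0 M reads in the mouse libraries, with a single read equal to 0.746 to 1.37 normalized counts, and from 0.189 to 58.5 M reads in the rat libraries. Of the 16 rat libraries, 6 held under 1 M reads, and a single read equalled up to 10.5 normalized counts. The tables were normalized separately, so levels are compared only within a table. Hepatocyte markers summed to at least 4479000 normalized counts in every mouse liver. Markers of other liver cells were present as well: Kupffer cell and macrophage markers summed to 10840 to 55270 and T and NK cell markers to 368 to 719 in the WT/Floxed livers. Sirt1 was at 492.7 to 699 normalized counts in the WT/Floxed livers and at 535 to 617 in the livers labelled L-Sirt1 KO. The part of Sirt1 that is deleted is not given in the sources used here, so a count over the whole gene does not check the label, and these mice are called by their label throughout. The study also measured hepatic Sirt1 by RT-qPCR, which is not analysed here. A bulk liver value cannot tell fewer cells of a type from less RNA per cell.

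The miRNAs that LNA29 blocks are shown first, because direct targets often carry a match to their shared seed. Capitals mark the seed, bases 2 to 8, which is the same in all 3 mature forms (RefSeq, GRCm38.p6). miR-29a-3p is encoded at chr6:31062673-31062694 (minus strand), miR-29b-3p at chr6:31063025-31063047 (minus strand) and again at chr1:195037091-195037113 (plus strand), and miR-29c-3p at chr1:195037600-195037621 (plus strand).
mmu-miR-29a-3p: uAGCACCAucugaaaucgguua
mmu-miR-29b-3p: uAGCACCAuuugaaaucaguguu
mmu-miR-29c-3p: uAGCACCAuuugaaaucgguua

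The 7-base match to this seed, TGGTGCT, was found in the annotated 3′ UTR of 0 of the 10 genes (GENCODE vM21, all protein-coding transcripts). It was present in 2202 of the 13481 WT/Floxed-tested genes with an annotated 3′ UTR, or 16.3%. The longest 3′ UTR searched ran from 55 bases in Psmb10 to 1197 bases in Nlrc5. The 8-base match, TGGTGCTA, was likewise found in 0 of the 10 genes and in 3.51% of all. These searches say only that the letters are not in these windows. Shorter matches and other parts of the transcripts were not searched, so whether the genes are direct targets is not settled.

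Of the 10 genes, 7 lie on mouse chromosome 17 (GRCm38): H2-K1 at chr17:33996017-34000347, Tapbp at chr17:33915899-33929292, Psmb9 at chr17:34181987-34187764, Tap1 at chr17:34187553-34197225, Psmb8 at chr17:34197721-34201454, Tap2 at chr17:34203527-34216321 and H2-D1 at chr17:35262730-35267499. Psmb10 lies at chr8:105935735-105938444, Nlrc5 at chr8:94434356-94527272 and B2m at chr2:122147686-122153083. Psmb9 and Tap1 are neighbours on opposite strands, with RefSeq start sites 226 bases apart, and their GENCODE models overlap by 212 bases. Psmb10 and B2m each lie wholly within the span of a gene on the other strand, Gm16156 and Patl2. Tap2, Psmb8, Tapbp and Nlrc5 also overlap another gene in part, and Tapbp shares 3422 bases with Zbtb22 on the same strand. Whether reads were counted by strand is not given in the sources used here, so part of the counts of overlapping genes may belong to the partner, and reads of H2-K1 and H2-D1 may be shared with near-identical class I genes.

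Promoter windows around the start site were at hand for 8 of the 10 genes (RefSeq, GRCm38.p6), not for Tap2 and Nlrc5. A set of 3 short motifs of interferon and NF-κB response were searched on both strands. Only exact matches to a fixed pattern per motif were counted, so other forms of each motif may be present in the same windows. The interferon regulatory factor pattern GAAANNGAAA was in the B2m window alone among the 8, against 3.44% of 32851 windows. The interferon gamma-activated site TTCNNNGAA was in the Psmb8 window alone, 97 to 89 bases before the start site, against 8.30% of windows. The κB element GGGANNNNCC was in 3 of the 8, B2m, H2-K1 and H2-D1, against 20.7% of windows. The windows of Tap1, Psmb9, Tapbp and Psmb10 held none of these letters. The stretches below show the matches in the light chain promoter (chr2:122147527-122147586, plus strand) and in a heavy chain promoter (chr17:34000418-34000477, minus strand), with matched bases in capitals. In B2m the interferon element comes first and the κB element, which reads on both strands 1 base apart, follows it.
B2m promoter: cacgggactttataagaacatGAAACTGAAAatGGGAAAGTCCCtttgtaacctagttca
H2-K1 promoter: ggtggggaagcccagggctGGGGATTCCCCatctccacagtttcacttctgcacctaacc

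In saline-treated WT/Floxed livers, B2m was the most abundant of the 10 per length, at 103186 ± 12233 normalized counts per kb of merged exons (SD, n = 5). H2-K1 followed at 29643 ± 1277 per kb and H2-D1 at 15122 ± 1217 per kb. The loading and cutting genes were far lower, with Tapbp at 1922 ± 612, Psmb10 at 1464 ± 208, Psmb8 at 771 ± 105 and Tap2 at 631 ± 121 per kb. Psmb9 stood at 350 ± 64.7, Tap1 at 325 ± 12.0 and Nlrc5, the regulator, at 94.4 ± 15.7 per kb. The ranges of the 5 livers overlapped between Tapbp and Psmb10, between Psmb8 and Tap2 and between Psmb9 and Tap1, so the order of these neighbours is within their spread. Lengths were those of the merged exons of all annotated transcripts, such as 3381 bases in Psmb8, 3660 in Psmb9 and 860 in B2m. A longer length lowers the value per kb, so levels and order also depend on this choice. The same order held in the saline-treated livers labelled L-Sirt1 KO, from B2m at 94512 ± 14593 to Nlrc5 at 56.9 ± 9.53 per kb (SD, n = 4). The plot of mouse counts shows each liver.

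**Figure D1:**
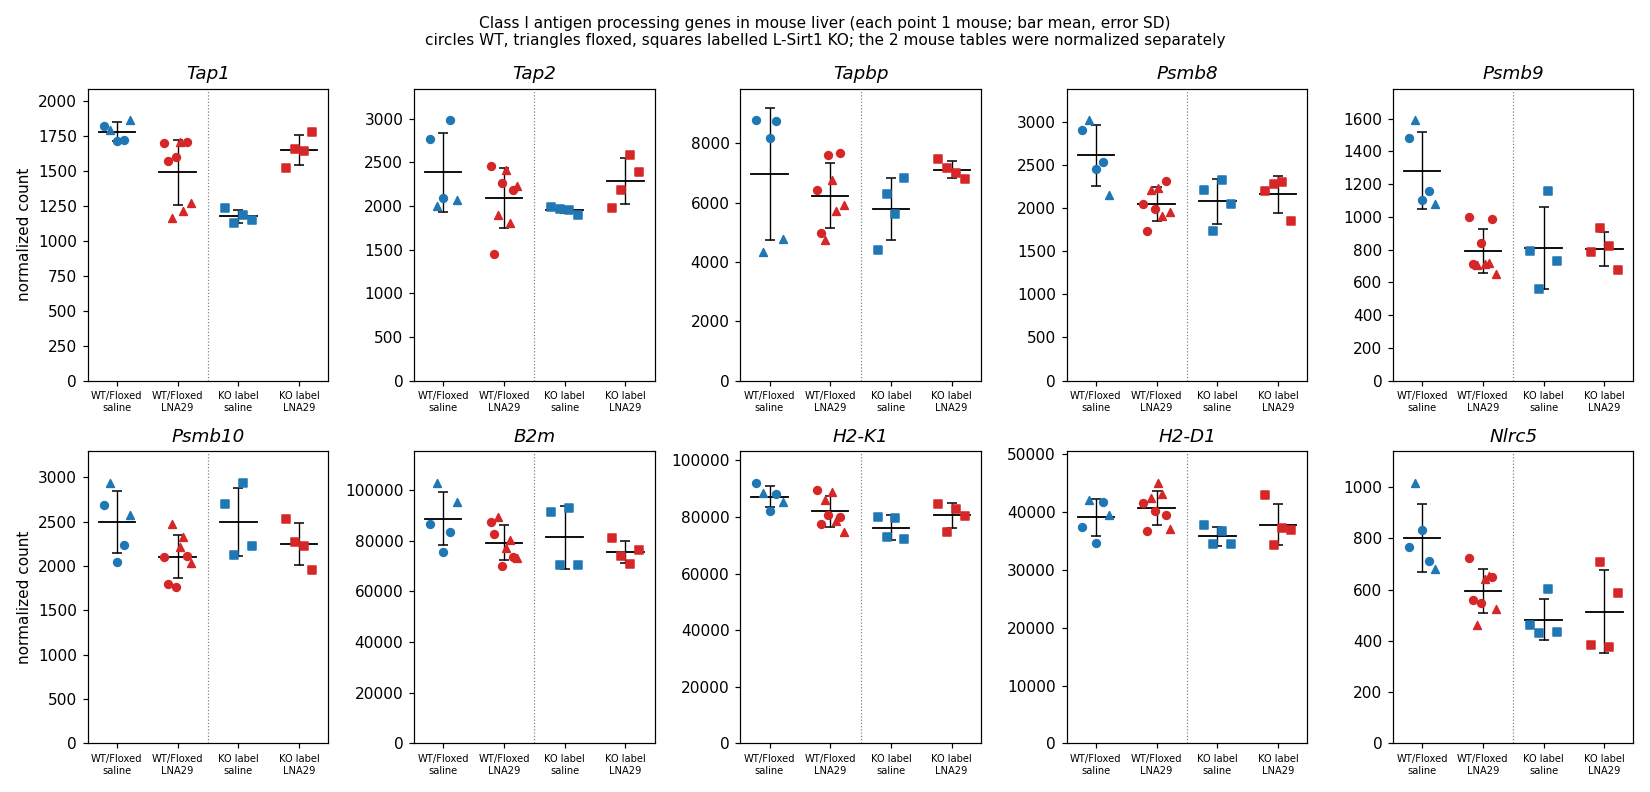
Normalized counts (y axes, from 0) of the 10 genes in each mouse liver by group (x axes). Circles are WT, triangles floxed and squares labelled L-Sirt1 KO, blue is saline and red LNA29, and the bar and error show mean and SD. Tap1 was at 1711 to 1866 in saline-treated and 1166 to 1707 in LNA29-treated WT/Floxed livers, and at 1126 to 1233 and 1524 to 1780 in those labelled L-Sirt1 KO.

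In WT/Floxed livers, 9 of the 10 genes had a lower mean log2 count with LNA29 than with saline, and the immunoproteasome gene Psmb9 differed most, at 0.619-fold. Psmb8, Psmb9 and Nlrc5 met the criteria of the study (p-value under 0.05, adjusted p-value under 0.2, mean above 50 and fold change above 1.2), all in the direction of lower counts. The median difference of the 10 was -0.22 on the log2(normalized count + 1) scale, beside 0.0017 over all genes. Since the LNA29 response of Tap1 selected the set, these values and those labelled L-Sirt1 KO are a description, and no p-value is given for the 10 genes in them. Over all 15811 genes tested with limma, 4.35% met the criteria and 1.93% met them with lower counts, and nothing is read from this share. The groups did not overlap for 2 of the 10 genes, Tap1 and Psmb9, and for 1.51% of all genes.

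Tap1 was at 1819, 1711 and 1721 normalized counts in WT and at 1794 and 1866 in floxed saline-treated livers. With LNA29 it was at 1697, 1568, 1600 and 1707 in WT and at 1166, 1705, 1211 and 1269 in floxed livers. Every LNA29-treated liver was below every saline-treated one, and the 3 lowest were floxed. The fitted difference was -0.27 ± 0.106 (SE, log2), or 0.827-fold, which missed the criteria, although it met them with sample quality weights. Tap2, the partner subunit of the pump, was at 1451 to 2464 with LNA29 and 2005 to 2988 with saline, with a difference of -0.19 ± 0.137. Tapbp ranged from 4753 to 7676 against 4352 to 8795, with a difference of -0.11 ± 0.186, and the ranges of both genes overlapped.

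Psmb9 was at 1479, 1102 and 1158 in WT and 1593 and 1080 in floxed livers with saline. With LNA29 it was at 998, 714, 843 and 990 in WT and 708, 714, 718 and 653 in floxed livers. The groups did not overlap and the difference was -0.69 ± 0.131. Psmb8, which is encoded beside Tap1, was at 1735 to 2316 (median 2011) with LNA29 and at 2899, 3019, 2448, 2526 and 2146 with saline, a difference of -0.35 ± 0.0926 or 0.787-fold. A single floxed saline-treated liver, at 2146, lay among the LNA29-treated livers. Psmb10, the third immunoproteasome subunit, was at 1769 to 2473 against 2047 to 2936, and its difference of -0.24 ± 0.102 did not meet the criteria, but with WT or floxed background as a covariate it was -0.27 ± 0.0816 and met them.

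The genes of the class I molecule itself had small differences in RNA over the pooled livers. B2m was at 69880 to 89470 with LNA29 and at 75700 to 102800 with saline, a difference of -0.16 ± 0.0868. H2-K1 was at 74500 to 89590 against 82040 to 92060, a difference of -0.09 ± 0.0653. H2-D1 was the 1 gene of the set with a higher mean with LNA29, at 36710 to 44990 against 34560 to 42010, a difference of 0.06 ± 0.0709. Nlrc5, which drives class I transcription, was at 461 to 724 (median 600) with LNA29 and at 766, 1017, 831, 712 and 683 with saline, a difference of -0.43 ± 0.121 or 0.743-fold. In that gene 2 saline-treated livers lay within the range of the LNA29-treated ones.

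The WT/Floxed group pools mice of 2 backgrounds, and the members differed in how they behaved within each, a split chosen after the data were seen. In WT mice alone (4 LNA29, 3 saline) 0 of the 10 genes met the criteria, and Tap1 differed by -0.09 ± 0.0766. In floxed mice alone (4 LNA29, 2 saline) Tap1 differed by -0.47 ± 0.162, and Psmb9 was the 1 gene that met the criteria, at -0.91 ± 0.163. Psmb9 was lower in WT mice too, at -0.49 ± 0.154, as were Psmb8 (-0.38 ± 0.113 in WT and -0.30 ± 0.151 in floxed mice) and Nlrc5 (-0.32 ± 0.127 and -0.56 ± 0.211). Tapbp had opposite signs, -0.38 ± 0.148 in WT and 0.34 ± 0.141 in floxed mice. Tap2 differed by -0.34 ± 0.195 in WT and was near 0 in floxed mice, at 0.03 ± 0.135. B2m differed by -0.07 ± 0.107 in WT and by -0.31 ± 0.115 in floxed mice. Whether the responses of WT and floxed mice differ was not tested. Without the first floxed saline-treated liver (saline replicate 2 of WT/Floxed), which had the highest Psmb8, Psmb9 and Nlrc5 counts, Psmb9 alone met the criteria, at -0.61. All of these fits hold fewer mice than the pooled fit. Over the settings tried, the genes called in all ranged from 56 to 1308, so nothing is read from these numbers of calls.

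In livers labelled L-Sirt1 KO, Tap1 was the 1 gene of the 10 that met the criteria, and it was higher with LNA29, at 1.40-fold. It was at 1233, 1126, 1188 and 1152 normalized counts with saline and at 1524, 1656, 1644 and 1780 with LNA29, so that the lowest LNA29-treated liver lay above the highest saline-treated liver. The difference was 0.49 ± 0.0825 (SE, log2). Over the 15885 genes tested, 1.87% met the criteria, 1.19% with higher counts, and the groups did not overlap for 6.95%. The median difference of the 10 genes was 0.07, beside -0.0027 over all genes.

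The partners of Tap1 in the peptide-loading complex leaned the same way without meeting the criteria. Tap2 was at 1985, 1963, 1958 and 1903 with saline and at 1984, 2184, 2589 and 2386 with LNA29, a difference of 0.22 ± 0.0945. Tapbp was at 4412, 6308, 5623 and 6837 with saline and at 7461, 7187, 7010 and 6796 with LNA29, a difference of 0.31 ± 0.128. In both genes 1 LNA29-treated liver lay within the saline range. The immunoproteasome genes were close to 0 or below, with differences of 0.06 ± 0.116 in Psmb8, 0.03 ± 0.201 in Psmb9 and -0.15 ± 0.126 in Psmb10. Psmb9 was at 791, 558, 1156 and 729 with saline and at 783, 930, 820 and 677 with LNA29, so the saline-treated livers alone spanned the LNA29 range. B2m (-0.10 ± 0.117), H2-K1 (0.08 ± 0.0823), H2-D1 (0.07 ± 0.0880) and Nlrc5 (0.05 ± 0.216) also had overlapping groups.

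**Figure D2:**
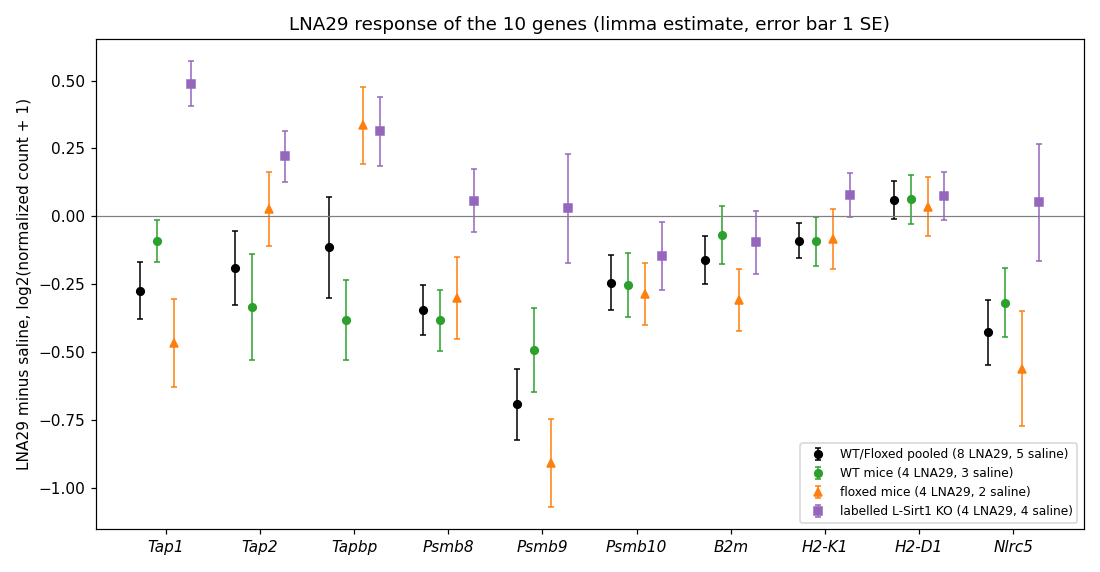
Difference between LNA29 and saline (y axis, log2(normalized count + 1), limma estimate with 1 SE) of each gene (x axis) for all WT/Floxed mice, for WT and floxed mice apart, and for those labelled L-Sirt1 KO. Tap1 stood at -0.27 in WT/Floxed mice and at 0.49 in those labelled L-Sirt1 KO, while H2-D1 stayed between 0.04 and 0.07 in all 4 fits.

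The difference between the LNA29 responses of the genotype labels (L-Sirt1 KO minus WT/Floxed) was above 0 for all 10 genes, with a median of 0.41 beside 0.0026 over all genes. For Tap1, the gene whose response selected the set, it was 0.76 ± 0.147 (SE, log2). Tap1 was the 1 gene of the 10 at an adjusted p-value under 0.2, beside 0.0449% of 15601 genes, and nothing is read from this, since the value itself selected the set. Psmb9 came next at 0.72 ± 0.240, of which -0.69 came from WT/Floxed mice and 0.03 from those labelled L-Sirt1 KO, whereas for Tap1 the estimates were -0.27, which missed the criteria, and 0.49. Nlrc5 (0.48 ± 0.239), Tapbp (0.43 ± 0.267), Tap2 (0.41 ± 0.192) and Psmb8 (0.40 ± 0.149) were lower, and H2-K1 (0.17 ± 0.0959), Psmb10 (0.10 ± 0.165), B2m (0.07 ± 0.143) and H2-D1 (0.01 ± 0.108) were the lowest. The sign of H2-D1 turned when single libraries were left out (-0.05 to 0.06). With floxed mice as the control genotype, which share age and litter with those labelled L-Sirt1 KO, the difference was 0.96 ± 0.170 for Tap1. It was 0.94 ± 0.294 for Psmb9, 0.19 ± 0.1605 for Tap2 and -0.02 ± 0.203 for Tapbp.

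The call of Tap1 rested on single libraries. It was lost on leaving out any 1 of 10 of the 21 libraries: L-Sirt1 KO LNA29 replicates 2, 3 and 4, L-Sirt1 KO saline replicates 2 and 4, WT/Floxed LNA29 replicates 2 and 8, and WT/Floxed saline replicates 3, 4 and 5. The difference of Tap1 itself stayed between 0.71 and 0.80 over all 21. With the flow cell as a covariate it was 0.76 ± 0.155 and was called, and Tap1 differed by -0.27 ± 0.116 in WT/Floxed livers and by 0.50 ± 0.0943 in those labelled L-Sirt1 KO.

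Markers of other liver cells moved beside these values. In livers labelled L-Sirt1 KO the 11 Kupffer cell and macrophage markers summed to 18990 to 23480 with LNA29 and to 24200 to 28330 with saline, the opposite direction to Tap1, and the markers Clec4f and Vsig4 met the criteria (adjusted p = 0.189 and 0.0891, limma). In WT/Floxed livers the same sum was 10840 to 55270 (median 20810) with LNA29 and 19670 to 32990 (median 29760) with saline. There 10 of the 11 markers had estimates below 0, the same direction as 9 of the 10 genes, with a median of -0.33 and 0 called. The sinusoidal endothelial marker Lyve1, 1 of 6, was lower with LNA29 in both, by -0.51 in WT/Floxed livers and -1.17 in those labelled L-Sirt1 KO. T and NK cell markers summed to 392 to 719 with LNA29 and 368 to 629 with saline in WT/Floxed livers, and to 383 to 630 and 408 to 596 in those labelled L-Sirt1 KO, with 0 called in either. B cell, dendritic cell, neutrophil and stellate cell lists had 0 called markers in both, and of 7 hepatocyte markers 2 were called in WT/Floxed livers (Apoa1 and Tat) and 0 in those labelled L-Sirt1 KO. Estimates in livers labelled L-Sirt1 KO were above 0, the direction of Tap1, for 5 of 5 dendritic cell and 2 of 2 neutrophil markers tested. So were those of 5 of 7 hepatocyte and 4 of 6 stellate cell markers. Below 0 were 10 of 11 Kupffer cell and macrophage, 9 of 12 T and NK cell and 4 of 6 sinusoidal endothelial markers. The 4 B cell markers were split 2 and 2. The part of these cells in the values of the 10 genes was not tested.

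Genes that act on or beside the class I pathway were read from lists that hold none of the 10. Among the regulators of class I genes, Stat2, a transcription factor of the interferon response, fell in WT/Floxed livers with LNA29, and Rfxap, a subunit of the RFX complex that binds MHC promoters, rose. Stat2 differed by -0.35 ± 0.109 (adjusted p = 0.156, limma). Rfxap was at 764 to 828.7 against 505 to 685, a difference of 0.38 ± 0.0818 (adjusted p = 0.0349, limma). The groups of Rfxap did not overlap, while those of Stat2 did, at 2075 to 2937 against 2493 to 3871.

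Of 15 other class I and class I-like heavy chain genes tested, Cd1d1 and Mr1, which present lipids and vitamin metabolites, fell in WT/Floxed livers by -0.30 ± 0.0835 and -0.59 ± 0.184 (adjusted p = 0.112 and 0.152, limma). No gene was called among 7 interferon receptors and kinases (largest Ifngr1, 0.36 ± 0.194), 7 peptide loading and trimming partners (largest Tapbpl, -0.22 ± 0.0814) or 11 standard proteasome and activator genes (largest Psme1, -0.24 ± 0.0951). In livers labelled L-Sirt1 KO, 0 genes of these 5 lists were called, the largest differences being 0.36 ± 0.121 in Rfx5, 0.22 ± 0.0816 in Tyk2, 0.30 ± 0.178 in Pdia3, -0.16 ± 0.118 in Psme1 and -0.30 ± 0.0997 in Fcgrt. Between the genotype labels 0 genes of the lists were called either. Of the 55 genes tested in the 5 lists, 5 (9.09%) were called in WT/Floxed livers, beside 4.35% of all genes. Over all genes 1.87% were called in livers labelled L-Sirt1 KO and 0.0449% between the labels. Nothing is read from these numbers.

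The genes outside the set whose counts followed Tap1 most closely, by the mean of the Pearson r over the 13 WT/Floxed livers and the r over the 8 livers labelled L-Sirt1 KO, were Trdmt1 (mean r 0.862), Sdc1 (0.827), Ccdc66 (0.825), Cdcp1 (0.819), Gnpda2 (0.799), Adsl (0.798), Trim14 (0.792), Cenpj (0.790), Spns2 (0.789) and Stra6l (0.783), out of 12759 genes. The livers share treatment groups and libraries, so these are descriptions. Among the set, Tap2 was the closest to Tap1 by this mean, with r of 0.406 and 0.809, and ranked 181. These r include the difference between treatments, and after group means were removed they were 0.255 and 0.574. In WT/Floxed livers Psmb9, Nlrc5, H2-K1 and Psmb8 had a higher r with Tap1 than Tap2 had, the difference between treatments included. After group means were removed, their r were 0.522, 0.437, 0.343 and 0.116. Psmb8 was then below Tap2, and Tapbp, at 0.288, was above it. Psmb9, whose start site is 226 bases from that of Tap1, had r of 0.732 in WT/Floxed livers and 0.0845 in livers labelled L-Sirt1 KO. With group means removed these were 0.522 and 0.137. Psmb8 and Psmb9 followed each other in both, with r of 0.856 and 0.870, or 0.635 and 0.878 with group means removed.

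The comparison of floxed with WT mice within the WT/Floxed table, with treatment as a covariate, did not choose the set and was tested. Tapbp, which holds class I molecules at the peptide pump, fell in floxed mice and was the 1 gene of the 10 that met the criteria. It was at 8795, 8194 and 8751 normalized counts in WT and 4352 and 4769 in floxed saline-treated livers, and at 6441, 4973, 7625 and 7676 in WT and 4753, 6781, 5729 and 5916 in floxed LNA29-treated livers. Saline-treated mice of the 2 backgrounds did not overlap, while LNA29-treated mice did. The difference was -0.46 ± 0.139 (SE, log2; 95% CI -0.76 to -0.16; adjusted p = 0.063, limma), or 0.725-fold, beside 14.7% of all genes meeting the criteria and 7.48% meeting them with lower counts in floxed mice, so 1 of 10 is no more than the share among all genes. The difference was -0.91 ± 0.0963 in saline-treated mice alone, with 3671 genes called, and -0.19 ± 0.154 in LNA29-treated mice alone, where it was not called.

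Psmb10 was higher in floxed mice by 0.23 ± 0.0796 (95% CI 0.06 to 0.40; adjusted p = 0.0934, limma), but its fold change of 1.17 was under the fold criterion. It was at 1769 to 2684 in the 7 WT livers and 2030 to 2936 in the 6 floxed livers. Tap1 differed by -0.17 ± 0.0950 (adjusted p = 0.277), and the interval ran from -0.38 to 0.03. The other 7 genes had adjusted p-values from 0.339 to 0.968 in the same limma fit, with H2-K1 at -0.01 ± 0.0622 and a 95% CI of -0.14 to 0.13. B2m was higher in floxed mice by 0.12 ± 0.0782 and was not called. Among saline-treated mice alone (2 floxed, 3 WT) it was called, at 0.27 ± 0.113 (adjusted p = 0.179, limma). That fit called 3671 of 15811 genes, so nothing is read from the B2m call. Whether the effect of background differs between treatments was not tested.

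**Figure D3:**
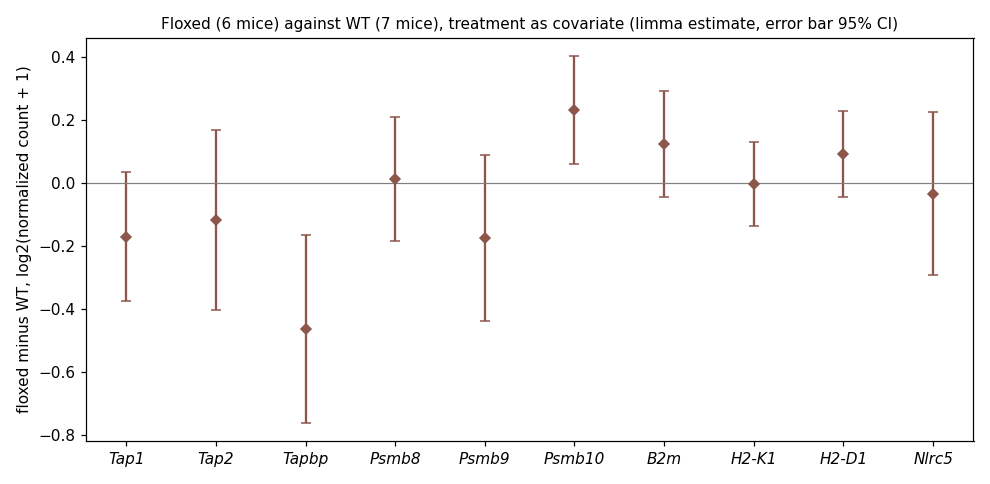
Difference between 6 floxed and 7 WT livers (y axis, log2(normalized count + 1), limma estimate with 95% CI, treatment as a covariate) for each gene (x axis). The interval of Tapbp runs from -0.76 to -0.16 and that of Psmb10 from 0.06 to 0.40, and the other 8 intervals include 0.

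Of 55 genes tested in the 5 pathway lists, 6 (10.9%) met the criteria between floxed and WT mice, below the 14.7% of all genes, so they are named as members of the lists and nothing is read from their number. Irf1, an interferon-responsive activator of class I genes, rose by 0.61 ± 0.141 in floxed mice (adjusted p = 0.0292, limma), and Nfya fell by 0.33 ± 0.0844 (adjusted p = 0.0399). The peptide-trimming protease gene Erap1 fell by 0.28 ± 0.0680 (adjusted p = 0.0324), and the heavy chain gene H2-Q1 fell by 0.41 ± 0.186 (adjusted p = 0.191). The standard catalytic proteasome genes Psmb5 and Psmb6, which the immunoproteasome subunits replace, rose by 0.28 ± 0.0690 and 0.29 ± 0.0739 (adjusted p = 0.0371 and 0.0403). Of 7 interferon receptors and kinases 0 were called, although all 7 estimates were below 0. The marker lists of other liver cells had 0 called genes, and of 7 hepatocyte markers 4 were called (Ttr, Cps1, Pck1 and Tat). Their part in the values of the 10 genes was not tested.

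In rats 8 of the genes were listed, and 7 passed the minimum mean of 10 in the ZFR and ZLR table, Nlrc5 being below it. The test found 0 of these 7 changed at an adjusted p-value under 0.05, beside 4.25% of 8633 genes, and 1 of 7 at an unadjusted p-value under 0.05, beside 16.6% of all genes, a share that 1 of 7 does not exceed. That gene was Psmb8, at 115.8, 132.7, 155.2 and 128.0 normalized counts in ZFR and 74.8, 108.0, 41.7 and 41.4 in ZLR. Every fatty rat was above every lean rat, the 1 gene of the 7 without overlap, beside 14.5% of all genes. The difference was 1.10 ± 0.296 (SE, log2; 95% CI 0.44 to 1.76; adjusted p = 0.0778, limma), or 2.14-fold. The two-sided exact permutation test gave p = 0.0286, the smallest that 4 against 4 rats allow. The lowest Psmb8 values, 41.7 and 41.4, came from ZLR libraries of under 1 M reads, and the difference was 0.47 without the libraries under that depth. Within the first flow cell ZFR were at 115.8 and 132.7 and ZLR at 74.8 and 108.0, and within the other ZFR were at 155.2 and 128.0 and ZLR at 41.7 and 41.4. Leaving out ZLR replicate 2, the highest lean rat and a library of 46.1 M reads, made it a call, at 1.37. Taking out the highest lean rat can only widen the difference, so nothing is read from this call.

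The other rat genes varied widely at this depth. Psmb9 was at 43.3, 50.4, 40.4 and 62.0 in ZFR and 25.6, 41.2, 52.5 and 0 in ZLR, where the liver listed at 0 had under 1 M reads. Its difference was 1.66 ± 1.08 with that library and 0.33 without it. Tap1 was at 62.2, 36.6, 130.9 and 24.4 in ZFR and 49.1, 90.5, 26.6 and 31.7 in ZLR, a difference of 0.24 ± 0.527 whose 95% CI of -0.95 to 1.42 holds both directions. Tap2 was steadier, at 60.0 to 68.9 against 51.6 to 64.3, a difference of 0.11 ± 0.151 (95% CI -0.23 to 0.45). B2m, the most deeply counted of the 7, was at 2153 to 2545 in ZFR and 2120 to 2444 in ZLR, a difference of 0.04 ± 0.0848 with a 95% CI of -0.15 to 0.23. Tapbp differed by 0.31 ± 0.218 and Psmb10 by -0.16 ± 0.227. With precision weights from the estimated reads Tapbp was called, at 0.40. Over the settings tried, the genes called in all between ZFR and ZLR ranged from 221 to 1982, so nothing is read from this call.

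BT2 was the last comparison, in ZFR against vehicle, and the limma test found 0 of the 8 genes changed. It called 0% of 8405 genes, or 0, with 332 genes (3.95%) and 0 of the 8 at an unadjusted p-value under 0.05, and the number over all genes was 0 to 2 under the other settings tried. B2m was at 1801, 1843, 2160 and 1860 with BT2 and at 1927, 2006, 1839 and 1982 with vehicle, a difference of -0.02 ± 0.100 with a 95% CI of -0.24 to 0.20. Tap2 (-0.15 ± 0.235), Tapbp (-0.22 ± 0.279), Psmb9 (0.26 ± 0.333) and Psmb10 (0.12 ± 0.335) each had overlapping groups. Tap1 was at 111.5, 20.9, 21 and 157.7 with BT2 and at 58.8, 31.4, 32 and 15.8 with vehicle, and both high values came from libraries under 1 M reads. Its difference was 0.75 ± 0.658 in all rats and -0.86 without those libraries. Psmb8 was at 81.0, 83.6, 128.8 and 0 with BT2 and at 117.8, 82.1, 89.1 and 71.6 with vehicle, and its fitted difference was -1.54 ± 1.25 with the shallow library listed at 0 and 0.11 without it. Nlrc5 was at 5.44 to 32 against 0 to 12.8. The exact permutation p-values of the 8 genes ran from 0.371 to 0.886.

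**Figure D4:**
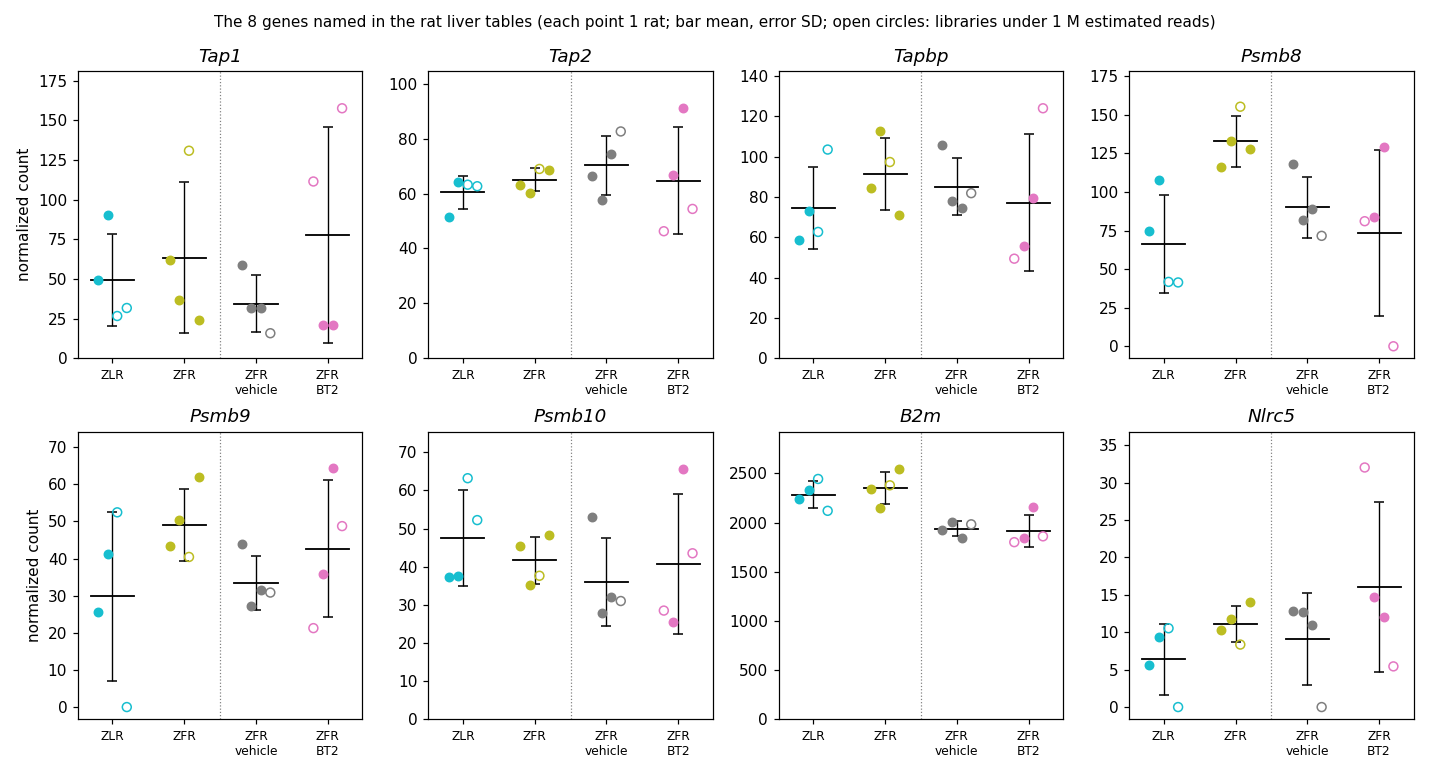
Normalized counts (y axes) of the 8 genes in each rat liver by group (x axes), with mean and SD, where open circles are libraries under 1 M estimated reads. Psmb8 was at 115.8 or more in all 4 ZFR and at 108.0 or less in all 4 ZLR, while the BT2 and vehicle groups overlap in all 8 genes.

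The rat class I heavy chain genes, which are named RT1 and stand in for the mouse H2 genes, were a list of their own. Of 13 heavy chain and class I-like genes tested between ZFR and ZLR, 0 passed an adjusted p-value under 0.05, and 11 had estimates above 0 with a median of 0.25, beside 0.07 over all genes. The largest was RT1-T24-3, at 0.91 ± 0.952 (adjusted p = 0.647, limma). With BT2, 0 of 12 were called and 9 had estimates below 0, with RT1-N2 the largest at -0.73 ± 1.22 (adjusted p = 0.935). These genes are closely related to each other, so reads may be shared among them. Of the regulators, interferon receptors, loading partners and proteasome genes, 0 were called in either rat comparison, with Rfxap (0.70 ± 0.486), Jak2 (1.02 ± 1.04), Sppl2a (-0.36 ± 0.189) and Psmb6 (-0.47 ± 0.215) the largest between ZFR and ZLR. Of the liver cell markers, Stab2 of sinusoidal endothelial cells (1.16 ± 0.253) and the hepatocyte genes Ttr, Tf and Cps1 were called between ZFR and ZLR (adjusted p = 0.033, 0.0375, 0.0192 and 0.0483, limma) and 0 with BT2, and their part in the values of the 8 genes was not tested.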

How the data were processed

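Poly(A) RNA-seq of 37 livers was analysed from 4 tables, with every column matched to a sample. The deposited values are a signal: gene counts that the authors estimated with Salmon after STAR alignment (mm10 and rn6) and divided by DESeq2 normalization factors, separately per table. Only 70.2% to 76.4% of low values per mouse library and 76.0% to 90.6% per rat library were whole multiples (within 0.02) of the value of 1 read, so counts were not recovered and no count model was run. Depth was estimated from that value. It limits counting error only.

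Rows without a gene name (381 in mice and 201 in rats, under 0.05% of counts) and names occurring more than once (130 and 4523) were left out. The BT2 table spells 244 names with another character in place of the hyphen, and these were respelled as in the other rat table. Genes with a mean of at least 10 were tested with limma 3.58.1 (lmFit, eBayes with a trend; R 4.3.3) on log2(normalized count + 1), with Benjamini-Hochberg adjustment over all of them; the method was tested on simulated data. Mouse calls used p under 0.05, adjusted p under 0.2, mean above 50 and fold above 1.2, the genotype difference an adjusted p under 0.2, and rats an adjusted p under 0.05. Exact two-sided permutation tests enumerated 70 splits.

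The members, lists and alternatives were chosen with earlier results of these data known. Named are the 10 members, from each wider list the called genes and the largest difference, and the 10 genes most like Tap1 with a mean of at least 50 in both mouse tables. Lists cover class I regulators, interferon receptors and kinases, loading partners, proteasome genes, other heavy chains and liver cell markers. GENCODE vM21 (GRCm38, the build of mm10) gave positions, lengths and 3′ UTRs, and RefSeq (GRCm38.p6) gave miRNAs and promoters. The other settings tried were TMM scaling, a larger pseudocount (10), testing without a minimum mean, sample quality weights, flow cell, background or replicate number in the fit, a stricter adjusted p, duplicated names summed, rats without shallow libraries or with precision weights, each library left out, and, chosen after seeing the data, WT and floxed mice apart. The study made its own calls with DESeq2 on counts, which are not used here. A regulator in the wider lists is not reported here, though counts over the lists include it.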

Additional observations from a re-analysis of the deposited data

Results flagged for a closer look

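Tap1 differed between the genotype labels in its response to LNA29, by 0.76 on the log2 scale (L-Sirt1 KO minus WT/Floxed, interaction term in limma). This value selected the set and is no independent result. In 3 of 72 combinations of gene and group the highest or lowest animal lay apart from the others by Dixon's 95% criterion, which chance alone gives in about 5% of groups. B2m was at 2160 normalized counts in ZFR BT2 replicate 3, above 1801 to 1860 in the other BT2-treated rats. Tap2 was at 51.6 in ZLR replicate 1, below 62.7 to 64.3 in the other lean rats. Nlrc5 was listed at 0 in ZFR vehicle replicate 4, a library of under 1 M reads, and at 11 to 12.8 in the other vehicle-treated rats.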

How the results depend on the processing

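The members' calls were few and several rest on the criteria. At an adjusted p under 0.05 in place of 0.2, 1 of the 10 genes (Psmb9) met the criteria in WT/Floxed mice, 0 in mice labelled L-Sirt1 KO, 0 between the genotype labels and 0 between floxed and WT mice, where Tapbp kept its difference of -0.46. In WT/Floxed mice the count of 3 became 1 in floxed mice only and 0 in WT mice only, and 4 with background as a covariate (Psmb10 added) or with sample quality weights (Tap1 added). Between genotype labels it was 4 with sample quality weights (Tap1, Tap2, Psmb8 and Psmb9), when 1220 genes were called in all. Between floxed and WT mice it was 2 in saline mice only, when 3671 genes were called in all, and 0 in LNA29 mice only (Tapbp -0.19). Between ZFR and ZLR it was 1 with precision weights. Leaving out each library in turn gave 1 to 4 members in WT/Floxed mice, 1 to 1 in those labelled L-Sirt1 KO, 0 to 2 between labels, 1 to 2 between backgrounds, 0 to 1 between ZFR and ZLR and 0 to 0 with BT2. With no minimum mean, the genes called in the wider lists fell from 8 to 4 in WT/Floxed mice and from 4 to 0 between ZFR and ZLR; the cause was not tested. TMM scaling and a pseudocount of 10 changed no member count. Over the settings tried, the genes called in all ranged from 56 to 1308 in WT/Floxed mice, 37 to 804 in those labelled L-Sirt1 KO, 0 to 1220 between labels, 174 to 3671 between backgrounds and 221 to 1982 between ZFR and ZLR.

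Replicate numbers did not pair the samples: the correlations of same-numbered deviations from the group means were -0.281 to 0.241 in mice and -0.0338 to 0.154 in rats. With the replicate block, members called were 1 in WT/Floxed mice, 1 in those labelled L-Sirt1 KO, 0 between ZFR and ZLR and 0 with BT2.

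Directions turned in values that were not called. In livers labelled L-Sirt1 KO, leaving out single libraries gave Psmb8 -0.0272 to 0.131, Psmb9 -0.132 to 0.218 and Nlrc5 -0.119 to 0.181. For LNA29 against saline in WT/Floxed mice, floxed mice only gave Tap2 0.0264 and Tapbp 0.336. Between floxed and WT mice, saline mice only gave Tap1 0.0646, Psmb8 -0.0402, Psmb9 0.0853 and Nlrc5 0.117, LNA29 mice only gave Tap2 0.0169, sample quality weights gave Psmb8 -0.0277, and the flow cell term gave H2-K1 0.00242. On leaving out single libraries there, Psmb8 ranged from -0.0470 to 0.0873, H2-K1 from -0.0287 to 0.0209 and Nlrc5 from -0.138 to 0.0313. Between ZFR and ZLR, sample quality weights gave Tap1 -0.41 and Psmb10 0.18, rats without shallow libraries gave -0.79 and 0.18, and precision weights gave -0.18 and 0.23, while Tap1 ranged from -0.20 to 0.59 on leaving out single libraries. With BT2, rats without shallow libraries gave Tap1 -0.86, Tap2 0.24, Psmb8 0.124 and B2m 0.0534, precision weights gave Tap1 -0.12 and Tap2 0.0793, and sample quality weights gave Psmb10 -0.12. On leaving out single BT2 libraries, Psmb8 ranged from -2.23 to 0.11, Psmb10 from -0.14 to 0.32 and B2m from -0.0788 to 0.00863. The signs of Tap1, Tap2, Psmb8, Psmb10 and B2m turned in at least 1 rat comparison without the shallow libraries. That setting also leaves fewer rats in each group, and the parts of depth and group size were not tested.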
